A study of Mus musculus with 30 samples.

Results

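The 8 genes described here belong to the machinery that carries secretory granules to the cell surface and fuses them with it, and were followed through mouse pancreas development: the small GTPase genes Rab3d, Rab3a and Rab27a, the Rab effector gene Sytl4, the vesicle SNARE genes Vamp8 and Vamp2, and the target membrane SNARE genes Snap25 and Stx1a. Every probe set that the platform annotation of the arrays assigns to one of these 8 symbols alone was taken, which gave 16 probe sets of 36701 in the series, 11 on chip A, 3 on chip B and 2 on chip C. The rule itself uses no measured value, but the members were chosen with earlier results of these data known. Dorsal pancreas was dissected from NMRI mouse embryos, with no treatment or genotype stated, at embryonic day 12.5 (e12.5), e13.5, e14.5, e15.5 and e16.5. Dorsal buds of a litter were pooled, each pool was labelled with biotin in 2 reactions, and each labelled sample was read on the 3 Affymetrix Murine Genome U74 version 2 chips A, B and C, giving 30 arrays. The labels give no number of litters or embryos, and no ventral pancreas was taken.

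In regulated exocytosis, proteins are stored in granules and released on a signal. Rab GTPases on the granule bind effectors that tether it near the plasma membrane, and a vesicle SNARE (a VAMP, or synaptobrevin) then zips up with target membrane SNAREs (a syntaxin and a SNAP-25 family protein) to drive fusion. In the adult pancreas this happens in acinar cells, whose zymogen granules hold digestive enzymes and carry Rab3D, Rab27 and VAMP8, and in endocrine cells, whose hormone granules use Rab3A, Rab27A and its effector granuphilin (Sytl4) together with VAMP2, SNAP-25 and syntaxin 1A, proteins also known from the synapse.

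Of the 16 probe sets, 8 rose with embryonic day, none fell and 8 did not pass (a line over the 5 pool means in limma, Benjamini-Hochberg adjusted p under 0.05 over all probe sets of the 3 chips). Over all probe sets 10.6% rose and 13.1% fell. At an unadjusted p under 0.05, 10 of the 16 had a positive slope and 2 a negative one. No share of all probe sets at an unadjusted p is given here or below, so such counts stand without a background. Rab3d, Rab27a, Sytl4 and Vamp8 rose on each of their probe sets. Vamp2, Snap25 and Stx1a passed on none, and Rab3a passed on 1 of 4. By the brightest probe set of each gene, 4 of 8 rose and none fell, against 11.9% and 17.0% of all 15964 genes, and the median change of the 8 was 0.49 on the log2 scale, against 0.02 over all genes. Without the e16.5 pool 5 of the 16 probe sets rose, and the 3 that no longer passed were both of Vamp8 and the one of Rab3a.

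**Figure D1:**
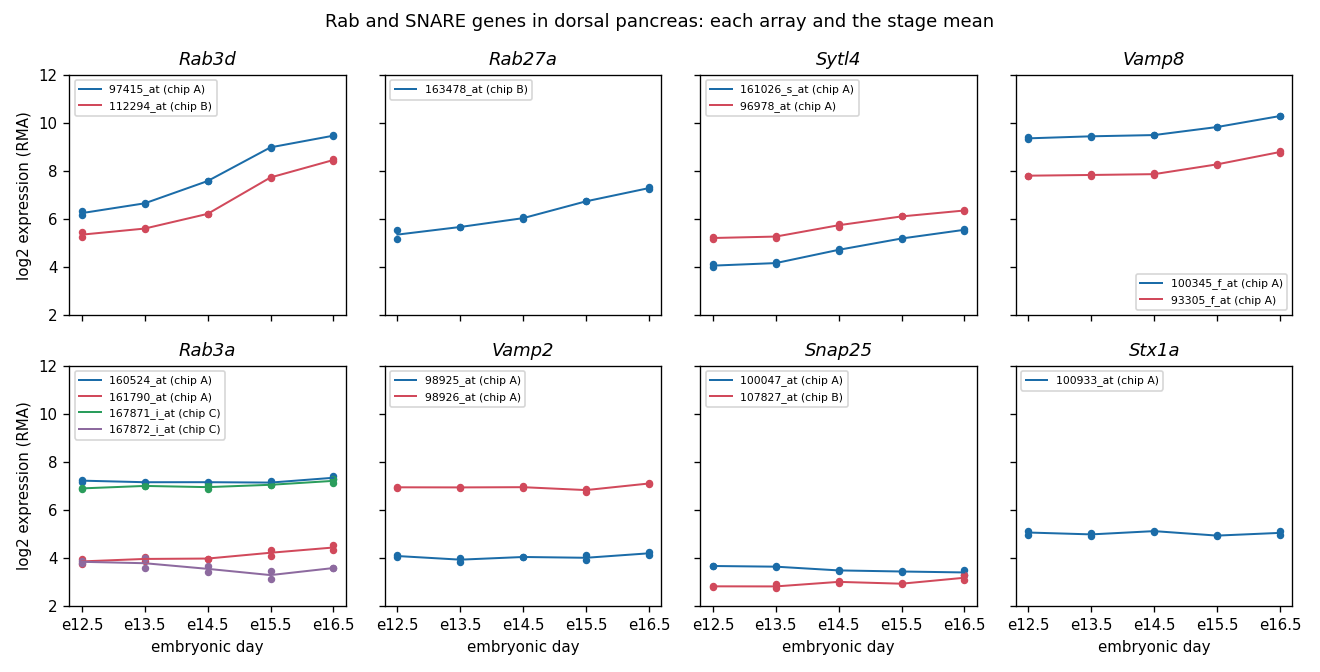
Log2 expression (RMA) of each probe set on every array against embryonic day, with a panel per gene. Points are labelling reactions, 2 per stage, and lines join the stage means; Rab3d, Rab27a, Sytl4 and Vamp8 in the upper row are highest at e16.5 on each probe set, and the stage means in the lower row span at most 0.58 log2 units. Levels of different probe sets are not comparable with each other.

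**Figure D2:**
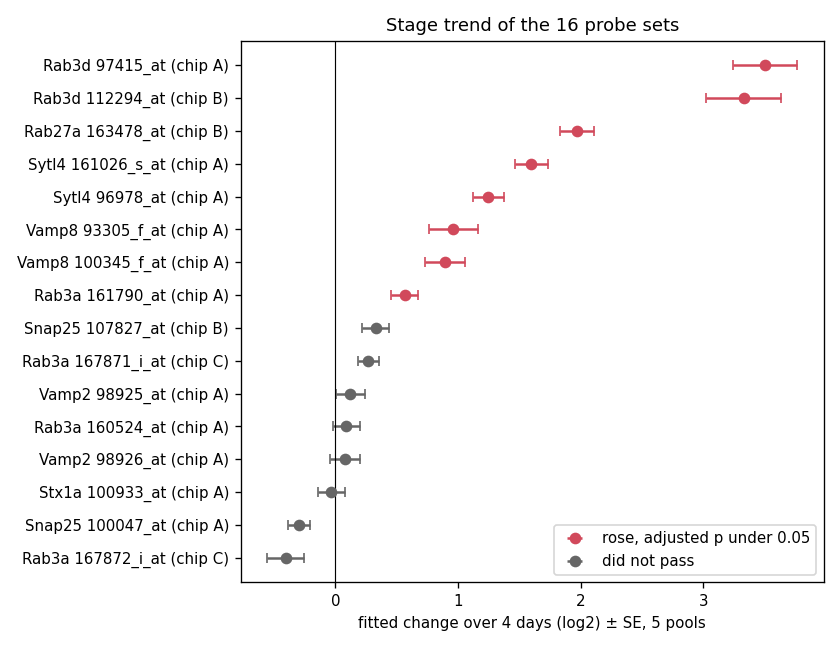
Fitted change over 4 days on the log2 scale with its standard error, for the 16 probe sets, sorted by change. The 8 probe sets that rose (red) run between 0.56 and 3.50, and the 8 that did not pass (grey) lie between -0.40 and 0.33.

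Both arrays of a stage come from 1 pool, so their spread is that of labelling and hybridisation, and stages cannot be told apart from pools. Within a pool, both reactions had correlations of 0.996 to 0.998 across probe sets, and array medians were 5.71 to 5.76 on chip A, 5.26 to 5.31 on chip B and 3.99 to 4.02 on chip C (log2). Pancreatic identity was checked on marker genes. The epithelial factor gene Pdx1 was between 5.50 and 6.21 (log2, mean of a stage), close to the chip A median of 5.74. The acinar factor gene Ptf1a was between 7.22 and 9.16 and the endocrine hormone gene Gcg between 11.62 and 12.69, both far above the chip C median of 4.01. The mesenchyme gene Col1a1, at 10.70 to 11.27, shows that the buds held other tissue as well. In such bulk RNA, fewer cells of a type and less RNA per cell cannot be told apart.

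The promoters of the 4 genes that rose on each of their probe sets are shown. They are the 250 bases before an annotated start, from RefSeq on GRCm38.p6, written 5′ to 3′ on the strand of the gene. Capitals mark E-boxes, here any match to CANNTG, the core bound by basic helix-loop-helix factors such as the acinar factors Ptf1a and Bhlha15 (Mist1).
Rab3d (chr9:21918184-21918433, minus strand): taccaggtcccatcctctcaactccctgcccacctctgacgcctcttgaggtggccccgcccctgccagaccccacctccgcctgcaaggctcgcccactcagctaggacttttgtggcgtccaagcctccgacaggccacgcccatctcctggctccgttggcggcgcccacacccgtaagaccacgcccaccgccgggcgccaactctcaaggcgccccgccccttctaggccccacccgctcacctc
Rab27a, first start (chr9:73044560-73044809, plus strand): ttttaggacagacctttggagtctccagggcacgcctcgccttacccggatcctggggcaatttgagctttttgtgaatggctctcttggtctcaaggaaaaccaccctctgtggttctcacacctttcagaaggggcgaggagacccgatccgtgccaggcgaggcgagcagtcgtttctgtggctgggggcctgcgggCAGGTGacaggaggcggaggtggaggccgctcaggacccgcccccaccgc
Rab27a, second start (chr9:73063898-73064147, plus strand): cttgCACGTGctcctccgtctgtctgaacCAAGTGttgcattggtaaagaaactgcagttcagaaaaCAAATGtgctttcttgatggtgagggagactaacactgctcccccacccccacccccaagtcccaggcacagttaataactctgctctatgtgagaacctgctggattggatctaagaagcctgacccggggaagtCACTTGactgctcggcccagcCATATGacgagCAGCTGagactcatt
Sytl4 (chrX:133981813-133982062, minus strand): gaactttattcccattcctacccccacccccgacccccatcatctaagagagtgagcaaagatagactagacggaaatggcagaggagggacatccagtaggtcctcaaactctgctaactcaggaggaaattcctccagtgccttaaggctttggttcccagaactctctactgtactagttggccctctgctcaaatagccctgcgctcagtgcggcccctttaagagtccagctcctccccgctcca
Vamp8 (chr6:72390668-72390917, minus strand): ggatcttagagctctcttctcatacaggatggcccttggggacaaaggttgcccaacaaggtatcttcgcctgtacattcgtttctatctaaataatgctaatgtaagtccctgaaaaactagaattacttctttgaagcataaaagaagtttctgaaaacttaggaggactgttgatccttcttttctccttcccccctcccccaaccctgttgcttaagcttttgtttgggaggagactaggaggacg

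The windows of Rab3d, Sytl4 and Vamp8 held no CANNTG, the first Rab27a window held 1 and the second held 6. Among 32851 such RefSeq windows, 66.2% hold at least 1. Those nearest the second Rab27a start are CATATG, beginning 26 bases before it, and CAGCTG, beginning 15 bases before it. CATATG was found in 3.46% of all windows and CAGCTG in 13% of them. Among the other members, Stx1a had 1 CAGCTG in its window and Rab3a had no CANNTG in 1 window and 3 in another, 1 of them CAGCTG, while Vamp2 and Snap25 have no entry in the table. The hexamers CATATG and CAGCTG are forms of the E-box and are counted in it. Both read the same on both strands, as does the pattern CANNTG. The cyclic AMP element core TGACGT, present in 6.47% of windows, was searched on both strands and found in 1 place, before Rab3a. The CCAAT box, present in 33.8%, was found in Rab3a and Rab27a. The pattern CCACG, present in 28.3%, had 2 matches in Rab3d, 2 in Stx1a and 1 in Rab3a. These matches describe letters, not binding.

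Rab3d, a Rab of zymogen granules in acinar cells, had the largest rise of the 8 genes. The gene lies on chromosome 9, 21907491 to 21918199. On its chip A probe set (97415_at) the 2 arrays of a stage gave 6.34 and 6.16 at e12.5, 6.68 and 6.64 at e13.5, 7.57 and 7.60 at e14.5, 9.02 and 8.95 at e15.5, and 9.46 and 9.48 at e16.5 (log2). No 2 stages overlapped, and each day was above the one before. The chip B probe set (112294_at) gave 5.48 and 5.24, 5.63 and 5.59, 6.23 and 6.22, 7.74 and 7.72, and 8.50 and 8.42 over the same days, again without overlap between stages. The fitted change was 3.50 ± 0.26 on chip A (SE, 5 pools, limma adjusted p = 0.000669) and 3.33 ± 0.31 on chip B (adjusted p = 0.000562), about 11.3-fold and 10.1-fold. These were the rises of rank 52 and rank 63 among the 36701 probe sets.

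Rab27a encodes a GTPase of hormone granules that also works in melanosomes and in lytic granules of leukocytes. It lies on chromosome 9 as well, at 73044810 to 73097623, and had 1 probe set (163478_at, chip B). Its arrays gave 5.53 and 5.19 at e12.5, 5.67 and 5.68 at e13.5, 6.003 and 6.08 at e14.5, 6.74 and 6.74 at e15.5, and 7.34 and 7.24 at e16.5. Each stage lay above the one before, and the widest gap between the 2 reactions of a pool was that at e12.5. The fitted change was 1.97 ± 0.14 (SE, 5 pools, limma adjusted p = 0.000275), or 3.92-fold.

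Sytl4 encodes granuphilin, which binds Rab27A on hormone granules and syntaxin 1A at the plasma membrane. It lies on chromosome X, 133936385 to 133981821. Its brighter probe set (96978_at, chip A) gave 5.19 and 5.25 at e12.5, 5.32 and 5.24 at e13.5, 5.69 and 5.81 at e14.5, 6.12 and 6.11 at e15.5, and 6.36 and 6.36 at e16.5. The arrays of e12.5 and e13.5 overlapped, and from e14.5 on each stage was above the one before. The change was 1.25 ± 0.13 (SE, 5 pools, limma adjusted p = 0.00165) on this probe set and 1.60 ± 0.14 (adjusted p = 0.00094) on 161026_s_at, whose design can be shared by similar sequences. That probe set had stage means of 4.07, 4.18, 4.73, 5.20 and 5.56, all below the chip A median of 5.74, and 96978_at was below it at e12.5 and e13.5. Since the files hold no detection calls, such values are not shown to lie above background and the change may be understated.

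Vamp8 encodes the vesicle SNARE endobrevin, the main VAMP of zymogen granule release and of platelets and mast cells. It lies on chromosome 6, 72385221 to 72390667. Its brighter probe set, 100345_f_at of chip A, gave 9.39 and 9.32 at e12.5, 9.47 and 9.41 at e13.5, 9.50 and 9.49 at e14.5, 9.85 and 9.81 at e15.5, and 10.27 and 10.30 at e16.5. No 2 stages overlapped, but the first 3 lay close together and e15.5 and e16.5 stood above them. The second probe set, 93305_f_at, had stage means of 7.81, 7.84, 7.87, 8.28 and 8.79, with the same flat start. The changes were 0.90 ± 0.16 (SE, 5 pools, limma adjusted p = 0.0114) and 0.96 ± 0.20 (adjusted p = 0.0172). With e16.5 left out they were 0.58 (adjusted p = 0.066) and 0.58 (adjusted p = 0.112), and with e13.5 left out the second was 0.94 (adjusted p = 0.0527). Both probe sets are of the type whose probes can match a family of sequences, so related transcripts can add to their signal.

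Rab3a, the Rab3 of synaptic and hormone granules, had 4 probe sets with different patterns. The brightest on chip A (160524_at) gave 7.18 and 7.26 at e12.5, 7.18 and 7.13 at e13.5, 7.18 and 7.13 at e14.5, 7.09 and 7.19 at e15.5, and 7.28 and 7.40 at e16.5. The first 4 stages overlapped in most pairs and e16.5 lay above them, and the change of 0.09 ± 0.11 did not pass (SE, 5 pools, limma adjusted p = 0.588). The bright probe set of chip C, 167871_i_at, had a change of 0.27 ± 0.09 (adjusted p = 0.0545). Of the 2 dim ones, 161790_at rose by 0.56 ± 0.11 (adjusted p = 0.0136) and 167872_i_at had -0.40 ± 0.15 (adjusted p = 0.0862), and both were dimmer than the median probe set of their chip on every day. Without the e16.5 pool these gave 0.44 (adjusted p = 0.0919) and -0.76 (adjusted p = 0.0104). Those of chip C were made with an incomplete set of probes. Rab3a lies on chromosome 8, 70754703 to 70758608.

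Vamp2, the synaptic vesicle SNARE that also serves insulin granules, had 6.92 and 6.97 at e12.5, 6.95 and 6.93 at e13.5, 6.89 and 7.003 at e14.5, 6.76 and 6.89 at e15.5, and 7.14 and 7.06 at e16.5 on its brighter probe set (98926_at, chip A). The first 3 stages overlapped, e15.5 lay below them and e16.5 above. Its change was 0.08 ± 0.12 (SE, 5 pools, limma adjusted p = 0.659), and that of 98925_at, at 3.94 to 4.20 below the chip median, was 0.12 ± 0.12 (adjusted p = 0.483). Vamp2 lies on chromosome 11, 69088528 to 69092381.

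Snap25 and Stx1a encode the target membrane SNAREs of neurons and islet cells. Snap25 (chromosome 2, 136713439 to 136782428) had stage means between 3.41 and 3.67 on 100047_at of chip A and between 2.82 and 3.18 on 107827_at of chip B; 107827_at has a mean at percentile 4.47 of that chip. Its changes were -0.29 ± 0.09 on chip A (SE, 5 pools, limma adjusted p = 0.0562) and 0.33 ± 0.11 on chip B (adjusted p = 0.0639). The slopes thus had opposite signs. Stx1a (chromosome 5, 135023482 to 135051100) gave 5.15 and 4.98 at e12.5, 5.05 and 4.92 at e13.5, 5.14 and 5.10 at e14.5, 4.92 and 4.95 at e15.5, and 4.96 and 5.14 at e16.5, with overlap between most stages and a change of -0.03 ± 0.11 (adjusted p = 0.854). The 3 probe sets of these genes were all dimmer than the chip median on every day. At such levels a change in either gene may have gone undetected.

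Paralogs on chip A were set against each other by the change of their log2 difference over the 5 pools, in 2 pairs chosen with these values known. The change of Rab3d exceeded that of Rab3a by 3.41, with differences relative to e12.5 of 0.47, 1.40, 2.81 and 3.10 at e13.5, e14.5, e15.5 and e16.5. The change of Vamp8 exceeded that of Vamp2 by 0.81, with 0.09, 0.13, 0.59 and 0.77. Leaving out a pool, the differences of the changes were between 3.18 and 3.74 for Rab3d and between 0.72 and 1.00 for Vamp8. Because a rising gene was set against a flat one with the values known, these are descriptions and no test is given.

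Between which days the 4 genes changed was asked in comparisons of each stage with the one before, over the 10 arrays of a chip. Their errors come from labelling reactions and compare these pools. A call needed an adjusted p under 0.05 and at least 2-fold. Between e15.5 and e14.5, 2 of the 16 probe sets were called higher, both of Rab3d, against 0.294% of all probe sets, and none lower (background 0.0708%, with 1 at an unadjusted p under 0.05). Rab3d was higher at e15.5 by 1.40 ± 0.07 on chip A (SE, 2 arrays each, limma adjusted p = 3.28e-07) and by 1.51 ± 0.08 on chip B (adjusted p = 1.32e-08). No member was called between e13.5 and e12.5, e14.5 and e13.5 or e16.5 and e15.5 (limma; at an unadjusted p under 0.05, 3, 6 and 12 of 16 were higher and none lower). Of all probe sets, 0.0790%, 0.106% and 0.215% were called higher there and 0.0490%, 0.0245% and 0.114% lower. These shares are for calls and are no background for the counts at an unadjusted p.

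The largest daily step lay between different days in different genes, which is given as a description. Of the whole difference between e16.5 and e12.5 for Rab3d, 43.5% on chip A and 48.8% on chip B was made between e14.5 and e15.5. For Rab27a the largest step was the same one, 0.70 ± 0.09 (SE, 2 arrays each, limma adjusted p = 0.000126), or 36.2% of its difference. Sytl4 made its largest step a day earlier, between e13.5 and e14.5, with 0.55 ± 0.07 (adjusted p = 0.00109) and 0.47 ± 0.06 (adjusted p = 0.0019) on its 2 probe sets. Its step at e13.5 was 0.11 ± 0.07 and 0.06 ± 0.06, with adjusted p-values of 0.422 and 0.665. Vamp8 made its largest step last, between e15.5 and e16.5, by 0.46 ± 0.06 (adjusted p = 0.000268) and 0.51 ± 0.07 (adjusted p = 0.000256), which is 49.3% and 52.2% of its difference. By e14.5 Vamp8 had made 14.7% and 6.48% of its difference, Rab27a 35.4% and Sytl4 46.4% and 44.1%. Whether the timing differs between genes was not tested.

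**Figure D3:**
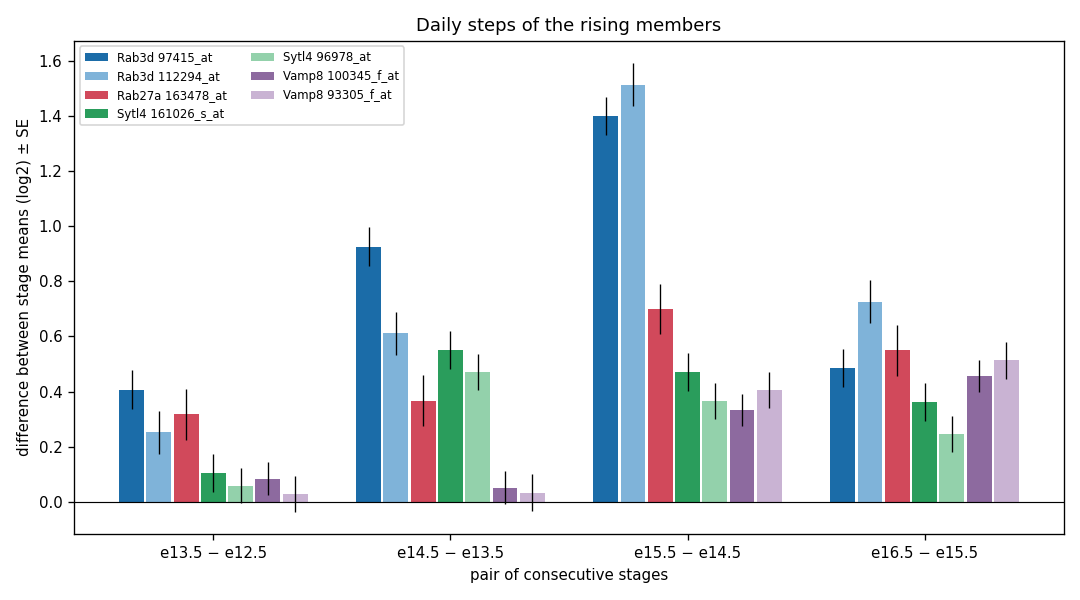
Difference between the means of consecutive stages on the log2 scale (bars, with the standard error from labelling reactions), for the 7 probe sets of Rab3d, Rab27a, Sytl4 and Vamp8. The tallest bars are those of Rab3d between e15.5 and e14.5, at 1.40 and 1.51, and both Vamp8 bars are under 0.1 in the first 2 pairs of stages.

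Over the whole span, 5 of the 16 probe sets were called higher at e16.5 than at e12.5 and none lower, where 1.44% of all probe sets were called higher and 3.03% lower (limma; 11 were higher and 1 lower at an unadjusted p under 0.05). They were both of Rab3d (9.47 ± 0.02 at e16.5 and 6.25 ± 0.13 at e12.5 on chip A, mean ± SD of 2 arrays), that of Rab27a (7.29 ± 0.07 at e16.5 and 5.36 ± 0.24 at e12.5) and both of Sytl4 (6.36 ± 0.0049 at e16.5 and 5.22 ± 0.04 at e12.5 on 96978_at). Vamp8 reached 1.90-fold and 1.98-fold, just under the minimum. No member differed at e14.5 from the mean of e12.5 and e16.5 by at least 2-fold, where 0.0817% of all probe sets were called higher and 0.136% lower. At an unadjusted p under 0.05 (limma) 5 were lower, those of Rab3d, Rab27a and Vamp8. Their stage means rose at every step, so the lower value at e14.5 is a bend in a rise and not a dip.

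Markers of several cell types moved over the same days. All 7 acinar markers rose, with a mean log2 level over the list of 7.71 to 7.81 on the arrays of e12.5, 9.09 to 9.11 at e13.5, 10.37 to 10.38 at e14.5, 11.53 to 11.55 at e15.5 and 11.996 to 12.02 at e16.5. Of 8 endocrine markers 3 rose (Ins2, Iapp and Sst), 1 fell (Gcg) and 4 did not pass. Chga, counted as not passing, rose on its dimmer probe set by 0.51 ± 0.12 (limma adjusted p = 0.0255). The mean of the 8 markers was 6.70 to 6.72 at e12.5, 7.55 to 7.56 at e13.5, 8.31 at e14.5, 8.43 to 8.46 at e15.5 and 8.46 to 8.47 at e16.5. That mean joins markers going both ways: Chgb had stage means of 7.83, 9.73, 9.79, 8.59 and 7.76, and Gcg, Neurod1 and Pax6 were also lower at e16.5 than at e14.5. Neurod1 and Pax6 were below the chip median on every day. Of the endocrine markers that rose, Ins2 had made 77.5% of its difference between e16.5 and e12.5 by e14.5, Iapp 64.1% and Sst 25.5%. Of 7 neuron and Schwann cell markers 5 fell and none rose (none also at an unadjusted p under 0.05), and their mean was 5.67 to 5.71 at e16.5, against 6.58 to 6.65 at e12.5. Among those that fell, Nefl and Elavl4 were below the chip median on every day. None of 7 leukocyte and platelet markers passed either way (limma, with 2 higher and 1 lower at an unadjusted p under 0.05). Their mean was 5.12 to 5.13 at e16.5, against 4.84 to 4.91 at e12.5. Ptprc, Cd68, Itgam and Pf4 were below the chip median on every day, so changes in them may have gone undetected. Lyz2 was below it until e15.5 (4.72) and above it at e16.5 (5.91). Of 3 pancreas epithelium markers, Cdh1 rose by 0.39 ± 0.09 (SE, 5 pools, limma adjusted p = 0.0269), Sox9 fell by 0.74 ± 0.16 (adjusted p = 0.0149) and Pdx1 did not pass. Of 4 mesenchyme markers Pdgfra fell by 1.67 ± 0.22 (adjusted p = 0.00384) and the other 3 did not pass, and the mean of the list was 8.11 to 8.19 at e16.5, against 8.51 to 8.62 at e12.5. The largest daily step of the 7 acinar markers was that to e15.5, as for Rab3d, in 4 (Bhlha15, Ptf1a, Cela1 and Cel), that to e13.5 in 2 (Cpa1 and Ctrb1) and that to e14.5 in 1 (Pnliprp1). Of the endocrine markers that rose, Sst also made its largest step to e15.5, and Ins2 and Iapp made theirs to e14.5. The part of these cell types in the changes of the members was not tested.

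**Figure D4:**
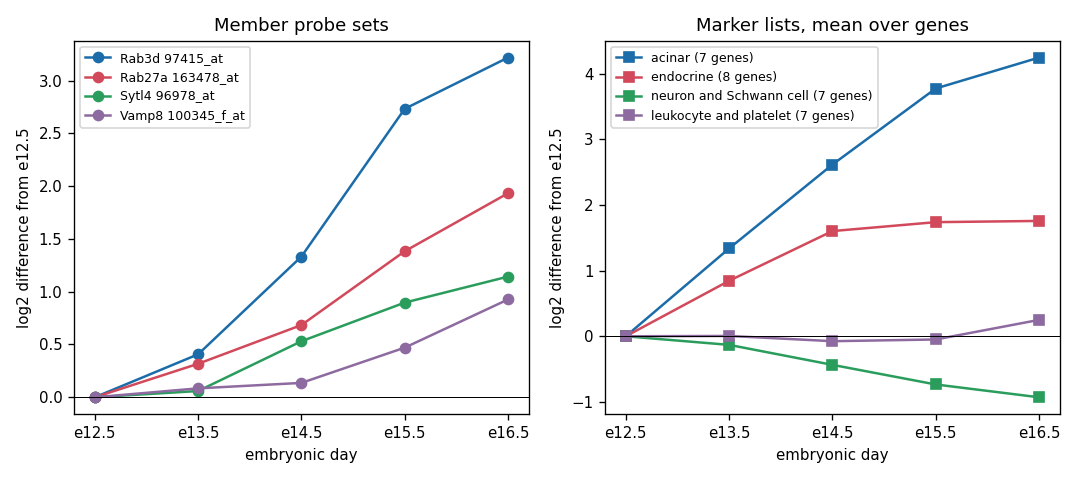
Log2 difference from e12.5 of 4 member probe sets (left) and of the mean over 4 marker lists (right) against embryonic day. Rab3d ends 3.22 above e12.5 and Vamp8 0.93, while the acinar markers end 4.25 and the endocrine markers 1.76 above it and the neuron and Schwann cell markers end 0.93 below it.

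The genes on the same chip with stage means nearest to those of each member were listed, where the member's stage means spanned at least 1 log2 unit. Likeness is the root mean square difference between the 5 stage means after each was centred, and it says nothing of function or control. Nearest to Rab3d on chip A were Ggh, a lysosomal folate hydrolase gene (difference 0.11), Edem2, a gene of glycoprotein degradation at the endoplasmic reticulum (0.12), and Perp, a desmosome gene (0.15). Nearest to Rab27a on chip B were Adhfe1 (0.07), Larp1b (0.09) and the transcription factor gene Klf15 (0.09). Nearest to Sytl4 on chip A were the amino acid transporter gene Slc7a5 (0.06), the selenophosphate synthetase gene Sephs2 (0.06) and the calcium-binding protein gene S100a6 (0.07).

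Most other genes of granule docking and fusion did not pass, and neither did most genes measured (11353 of 15964). Of 80 measured in 7 lists, by the brightest probe set of each gene, 10 rose, 10 fell and 60 did not pass. Their median change was 0.04. Among all genes 11.9% rose and 17.0% fell, so that the share of these 80 that rose was near the background and is no result about them. The same holds for the share that did not pass. Counts within the single lists below stand against these same shares. Among 19 genes of the Rab3 and Rab27 family and their effectors 2 rose and none fell (limma; 5 and 2 at an unadjusted p under 0.05): Rab26, a Rab of acinar granules, by 0.66 ± 0.10 (SE, 5 pools, adjusted p = 0.00374) and Rab27b, the close relative of Rab27a, by 0.45 ± 0.11 (adjusted p = 0.0205). Sytl1 and Rab3gap2, counted as not passing, each rose on a dimmer probe set, by 1.07 ± 0.13 (limma adjusted p = 0.00205) and 0.78 ± 0.11 (adjusted p = 0.00227). Rab3b and Rab3c, the remaining Rab3 genes, had 0.10 ± 0.12 and -0.08 ± 0.10 at levels under the chip median. For Rab27b, leaving out e12.5 gave 0.30 (adjusted p = 0.159) and leaving out e16.5 gave 0.47 (adjusted p = 0.109).

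Of 5 further VAMP genes, by their brightest probe sets, Vamp1 rose by 0.37 ± 0.11 (SE, 5 pools, limma adjusted p = 0.0496). Vamp4, a VAMP of the Golgi and endosomes, fell by 0.56 ± 0.15 (adjusted p = 0.0416) at levels under the chip median. Vamp3, counted as not passing, rose on both dimmer probe sets, by 0.85 ± 0.10 (adjusted p = 0.00121) and 0.64 ± 0.14 (adjusted p = 0.0142). Vamp5 and Vamp7, also counted as not passing, each rose on a dimmer probe set, by 0.39 ± 0.09 (adjusted p = 0.0198) and 0.78 ± 0.16 (adjusted p = 0.0157). Of 11 further syntaxin genes 3 rose and 4 fell by their brightest probe sets. Among these Stx7 fell by 0.42 ± 0.10 (adjusted p = 0.0255) on that probe set, but 2 of its dimmer probe sets rose, by 0.89 ± 0.14 (adjusted p = 0.00445) and 0.44 ± 0.11 (adjusted p = 0.022), so its direction is not settled. Stx17, counted as not passing, fell on 2 of its dimmer probe sets. Stx3, a syntaxin of apical membranes, rose by 0.97 ± 0.11 (adjusted p = 0.00107) on its brightest probe set, with stage means of 6.10, 6.30, 6.43, 6.83 and 7.04, while its other 5 probe sets did not pass. Stx6 fell by 0.56 ± 0.16 (adjusted p = 0.0489) and Stx8 rose by 0.48 ± 0.13 (adjusted p = 0.0397), both syntaxins of endosomal traffic. None of the other probe sets of Vamp1, Vamp4, Stx6 and Stx8 passed. None of the 3 remaining SNAP-25 family genes passed (limma; none also at an unadjusted p under 0.05). The calls of Vamp1, Vamp4, Stx6 and Stx8 were lost when e16.5 was left out, with 0.31 (adjusted p = 0.276), -0.61 (adjusted p = 0.138), -0.22 (adjusted p = 0.315) and 0.36 (adjusted p = 0.232), and also when some other pools or arrays were left out.

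Among 18 SNARE regulators 4 rose and 2 fell by their brightest probe sets. Cplx1, counted as not passing, rose on its dimmer probe set by 0.57 ± 0.09 (limma adjusted p = 0.00516). Stxbp2, the Munc18 protein that pairs with syntaxin 3 in epithelia, rose by 0.83 ± 0.10 (SE, 5 pools, limma adjusted p = 0.00326), with stage means of 7.46, 7.72, 7.80, 8.16 and 8.27, and did not pass on its other 2 probe sets. Napb, a SNAP protein of SNARE disassembly, rose by 0.64 ± 0.12 (adjusted p = 0.00854) but did not pass on its other 2 probe sets (-0.05 and 0.05). Unc13a, a priming factor, rose by 0.52 ± 0.13 (adjusted p = 0.0235) at levels below the chip median. Leaving out e12.5, Napb had 0.43 (adjusted p = 0.073) and Unc13a 0.31 (adjusted p = 0.212), and leaving out e16.5, Unc13a had 0.63 (adjusted p = 0.0698). Of 16 synaptotagmins, a family that includes calcium sensors of fusion, none rose (limma, with 1 at an unadjusted p under 0.05). In this family 2 fell, Syt6 by 1.40 ± 0.18 (adjusted p = 0.0022) and Syt14 by 0.66 ± 0.10 (adjusted p = 0.00383). Of 8 exocyst genes, which tether vesicles, none rose (limma; none also at an unadjusted p under 0.05) and Exoc2 fell by 0.39 ± 0.10 (adjusted p = 0.0281), a call lost on leaving out e12.5 (-0.39, adjusted p = 0.11), e13.5 (-0.37, adjusted p = 0.0744), e15.5 (-0.34, adjusted p = 0.0549) or e16.5 (-0.49, adjusted p = 0.072). Exoc2 also fell on its dimmer probe set, by 0.33 ± 0.10 (limma adjusted p = 0.0453). Exoc5, counted as not passing, fell on both dimmer probe sets, by 0.55 ± 0.17 (adjusted p = 0.0466) and 0.56 ± 0.16 (adjusted p = 0.041). Exoc4, also counted as not passing, fell on a dimmer probe set by 0.46 ± 0.10 (adjusted p = 0.0203), while its others did not pass. Over the 7 lists, leaving out e12.5 left 4 rising and 6 falling genes, leaving out e13.5 left 3 falling, and leaving out e16.5 left 5 rising and 3 falling.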

How the data were processed

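Per the submitters' processing notes the values were made with RMA, a method of background correction, quantile normalization and probe summary. The deposited values are taken as log2 expression, 1 per probe set and array; the log base was inferred from their range. The sources used here name neither the software nor its version. Each chip was handled as normalized on its own, and the precision is limited by the number of arrays. Of 36701 probe sets, 29131 had 1 symbol in the platform annotation, 724 several and 6846 were unnamed here; symbols were updated through Entrez identifiers to GRCm38.p6. The brightest probe set, by mean over arrays, stands for a gene.

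Tests used limma 3.58.1 in R 4.3.3. For the stage trend, a straight line against embryonic day went through the 5 pool means; the change is the slope times 4 days. Contrasts used the 10 arrays of a chip with stage as a factor. P-values of all chips were adjusted together, and the functions were tested on simulated data. Named genes were all members, up to 3 passing genes with the largest change per further list, the 3 nearest genes per member, and markers. Members, lists and tests were chosen with earlier results of these data known. Some listed genes were not analysed here. No sample was left out. Replicate numbers do not pair the samples: the differences between reactions correlated between stages at -0.18 to 0.11, over 0.1 in 1 of 30 pairs of stages.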

Additional observations from a re-analysis of the deposited data

How the results depend on the processing

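The number of pools limits what can be shown: 1 pool per stage gives no spread between litters, and dim probe sets have no detection calls. Alternatives were scaling, a brightness filter, an intensity trend, adjustment within chips, fits on single arrays, other fold minimums and leaving out arrays or pools. The line over 10 arrays, with or without a replicate block, takes the 2 labelling reactions of a pool as separate units, although they share that pool. Its counts are therefore not counts over independent pools. The 8 rising member probe sets became 5 with bright probe sets only (a filter that tests fewer) and 5 without the e16.5 pool, and 8 to 10 without single arrays. The falling count of 0 became 1 when quantile normalized again, 1 with an intensity trend, 1 without the e16.5 pool, 2 in a line over 10 arrays, 2 with the replicate block, and 0 to 1 without single arrays. For e16.5 against e12.5 the 5 higher members became 3 with bright probe sets only and 10 with no fold minimum, where 1 was lower. No share of all probe sets is given for calls with a smaller or no fold minimum. At a 1.5-fold minimum the e14.5 step called 2 and the e16.5 step 1. At that minimum e14.5 was called lower than the mean of e12.5 and e16.5 in 1 probe set, and with no fold minimum in 5. The stage means of these 5 rose at every step, so none had a dip. The 10 rising and 10 falling other genes became 4 and 6 on leaving out e12.5, 5 and 3 on leaving out e16.5, and 3 falling on leaving out e13.5; 19 rose with the replicate block. Over all probe sets, the 3886 rising became 2144 with bright probe sets only, 7957 in a line over 10 arrays, 7580 with the replicate block, and 1874, 2207 and 1275 on leaving out e12.5, e13.5 and e16.5, and the 4825 falling became 7538, 7313 (block) and 2278 (without e16.5). Signs turned only in slopes near 0 that did not pass: Stx1a with median centring (0.0020 in the trend, 0.0082 for e16.5 against e12.5), without the e12.5 pool (0.00061) or the e15.5 pool (0.018), and without replicate 1 of e12.5 (0.034 and 0.067) or of e16.5 (0.038 and 0.072); and without the e16.5 pool the brightest Rab3a probe set of chip A (-0.10) and Vamp2 (-0.043 and -0.14). The causes were not tested.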
